A study of Macaca mulatta with 25 samples.

Results

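The second week of progesterone in the rhesus macaque cervix was followed by setting the 5 arrays of animals killed after 14 days of progesterone (E+14P) against the 5 arrays of animals killed after 7 days (E+7P). These 10 arrays were taken by their labels from the 25 of the series, and every probe set was tested. All 25 animals were adult ovariectomized rhesus macaques with an estradiol implant under the skin, so both groups carried estradiol. E+14P and E+7P animals had in addition a progesterone implant. The other groups, used here for the shared spread and as a baseline, had progesterone for 1 day (E+1P) or 3 days (E+3P) or estradiol alone for 14 days (E2), with 5 animals each. Each animal gave 1 array of cervix tissue, so the animals of a group are biological replicates. Group sizes in the series' design text differ from these, and the arrays' labels were followed. The days of estradiol in the progesterone groups are not given, so a longer time on estradiol in E+14P cannot be told apart from a longer time on progesterone. The animals had no ovaries, so the hormones came from the implants, which limits the model beside a natural cycle.

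The cervix carries a mucus-secreting columnar epithelium with ciliated cells, a stratified squamous epithelium towards the vagina, and a wall of smooth muscle and collagen that holds resident leukocytes. Estradiol acts through ESR1, induces the progesterone receptor PGR and favours abundant thin mucus. Progesterone acts through PGR, opposes estradiol-driven secretion and ciliation, and is known to induce targets such as the co-chaperone FKBP5. Signals are log2 values, so a difference of 1 is a 2-fold change. A gene is represented by its brightest probe set, and signals are compared between arrays and not between genes. Whether a marker is absent could not be judged, since no background signal was available here. In whole tissue, fewer cells of a type and less RNA per cell cannot be told apart.

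No probe set passed the test between E+14P and E+7P. In limma, 0 of 40489 probe sets (0%) had an adjusted p under 0.05, and the lowest adjusted p was 0.358. An unadjusted p under 0.05 was found for 1729 probe sets, or 4.27%, of which 855 were higher and 874 lower in E+14P. Among the 15534 genes with 1 symbol, 576 (3.71%) had an unadjusted p under 0.05, 289 higher (1.86%) and 287 lower (1.85%). The groups did not overlap for 132 genes (0.85%), 63 of them higher (0.406%) and 69 lower (0.444%) in all 5 E+14P arrays. The same fit called 1528 probe sets between E+14P and E2 (3.77%) and 1695 between E+7P and E2 (4.19%). Those 2 comparisons share the E2 arrays and are given side by side below, not as independent evidence. Between E+7P and E+3P it called 2 (0.00494%).

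**Figure D1:**
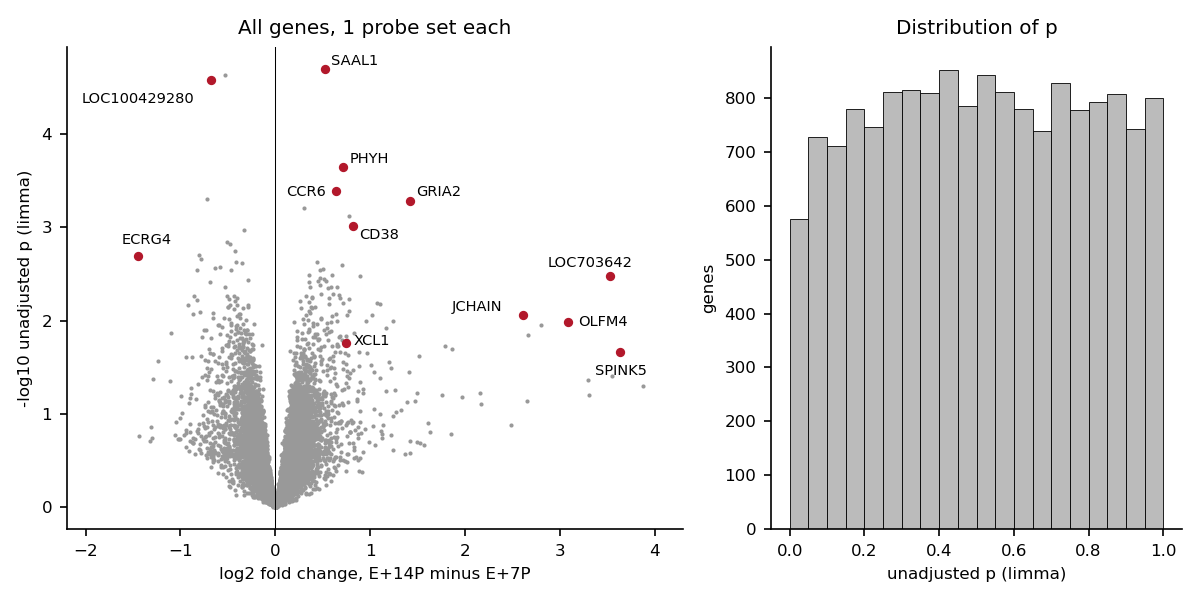
Left, log2 fold change of E+14P minus E+7P (x axis) against -log10 of the unadjusted limma p (y axis) for 15534 genes, with genes named in the text in red. Right, the number of genes in each bin of unadjusted p. The bin under 0.05 holds 576 genes and is not taller than the others, and the largest differences on the left, such as SPINK5 and LOC703642, lie at higher p than SAAL1.

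Most genes were bounded within 2-fold, a limit wider than the median early response given below. The median absolute log2 fold change over 15534 genes was 0.11, and the 95% interval reached a median of 0.32 to either side of the estimate. For 92.1% of genes the whole interval lay within 2-fold in either direction, and for 73.3% within 1.5-fold. A p over the threshold does not show that a gene stayed the same, and these intervals give the sizes that 5 animals a group still allow. The point estimate exceeded 2-fold for 58 genes that were higher and 15 that were lower in E+14P.

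Genes that progesterone had moved in its first days had median differences near 0 in the second week, which does not show that each gene held its level. As genes of the early response, those called between E+1P and E2 (2.32% of all probe sets) or between E+3P and E2 (10.4%) were taken. The E+1P and E+3P arrays are in neither late group, but the E2 arrays that served to pick these genes are also the baseline of the medians against E2. The difference of E+14P from E+7P does not use the E2 means. E+3P replicates 2 and 3 have marker means far from the other arrays, as given with the marker lists. The 1- and 3-day values picked these genes, so their medians are enlarged by that choice. A smaller median at 7 days than at 3 days is therefore partly built in and is not read as a decline. Of 1023 genes raised early, the median difference from E2 was 0.28, 0.48, 0.29 and 0.27 at 1, 3, 7 and 14 days. The difference of E+14P from E+7P had a median of -0.016, 45.5% of these genes were higher in E+14P, and for 973 (95.1%) the interval lay within 2-fold. None of them had a point estimate over 2-fold. That bound is wider than the median response, so a gene could lose its response within it. Of 1192 genes lowered early, the medians against E2 were -0.27, -0.60, -0.45 and -0.48. Their median difference of E+14P from E+7P was -0.020, with 45.0% higher, 1060 (88.9%, against 92.1% of all genes) bounded within 2-fold and 4 that differed by more than 2-fold. Over all genes the median was 0.0012 and 50.3% were higher. The 144 genes lowered at both 1 and 3 days stood at a median of -0.58 in E+14P and -0.62 in E+7P against E2, and the 78 raised at both stood at 0.59 in E+14P and 0.60 in E+7P.

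**Figure D2:**
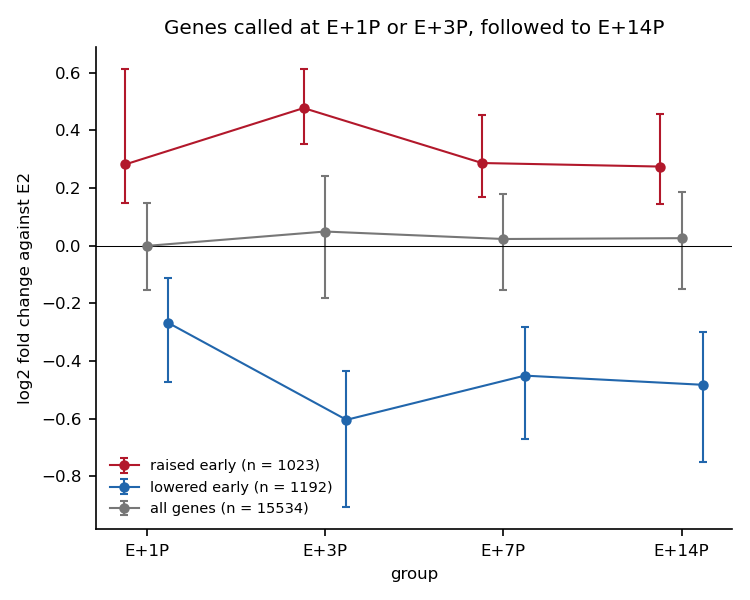
Median log2 fold change against E2 (points) with the 25th to 75th percentile over genes (bars) in the groups with progesterone, by its length in days, for 1023 genes raised and 1192 genes lowered at E+1P or E+3P and for all 15534 genes. The medians at E+14P and E+7P are nearly level, 0.27 and 0.29 for raised genes and -0.48 and -0.45 for lowered genes. The same E2 arrays and the E+1P and E+3P values served to pick these genes, so the step from E+3P to E+7P is partly built in.

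The receptors of both hormones and a classical progestin target did not pass the test between the late groups either. FKBP5 had log2 signals of 7.36, 7.09, 7.88, 7.19 and 6.76 in E+14P and of 7.11, 7.34, 7.19, 7.26 and 6.96 in E+7P. Its groups overlapped, with a log2 fold change of 0.085 (SE 0.22, adjusted p = 0.993) and of 0.27 without 4 arrays whose marker means lay far from the rest, named with the marker lists, while it stood 1.58 above E2 in E+14P (adjusted p = 0.000206) and 1.5 above E2 in E+7P (adjusted p = 0.000356). PGR had 9.54, 10.14, 10.36, 10.04 and 9.87 in E+14P and 10.04, 9.86, 9.56, 9.65 and 8.79 in E+7P. It was 0.41 higher in E+14P (SE 0.20, adjusted p = 0.987) with overlapping groups, and was below E2 by a log2 fold change of -0.76 in E+14P (adjusted p = 0.0354) and -1.17 in E+7P (adjusted p = 0.00157). ESR1, the estradiol receptor, averaged 8.57 ± 0.27 in E+14P and 8.74 ± 0.19 in E+7P (SD, n = 5 each). The adjusted p between E+14P and E+7P was 0.987 for every gene given from here on, unless another value is stated.

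Of 36 measured progestin response genes, 11 were called higher and 1 lower in E+14P against E2, and 11 higher and 0 lower in E+7P against E2, set beside 3.77% (E+14P) and 4.19% (E+7P) of all probe sets called in either direction. Between E+14P and E+7P 0 were called, 15 were higher and 21 lower, and the median was -0.030. GADD45A, a stress-induced growth arrest gene, averaged 6.72 ± 0.23 in E+14P and 7.03 ± 0.17 in E+7P, and BCL6, a transcriptional repressor, averaged 7.76 ± 0.16 in E+14P and 8.10 ± 0.23 in E+7P. IGFBP1, an insulin-like growth factor binding protein of decidual cells, lay between 3.13 and 3.68 on the E+14P arrays, against 2.89, 3.43, 3.67, 6.91 and 4.36 on the E+7P arrays. The difference of -0.89 was -0.23 without E+7P replicate 4, the array with the high signal. Estrogen response genes split 14 higher and 13 lower of 27, with a median of 0.011. Among them SIAH2, a ubiquitin ligase, was 0.36 higher and CCND1, cyclin D1, 0.41 lower on the log2 scale. CCND1 stood at a log2 fold change of -1.17 against E2 in E+14P (adjusted p = 7.5e-05) and -0.76 in E+7P (adjusted p = 0.00305).

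Endoplasmic reticulum folding and secretion genes, which serve protein export, were lowered by both lengths of progesterone. Of 44 measured genes 29 were called lower in E+14P against E2, with a median of -0.60, and 33 in E+7P, with a median of -0.71, and 0 were called higher in either, beside 3.77% (E+14P) and 4.19% (E+7P) of all probe sets called in either direction. Between E+14P and E+7P 33 were higher and 11 lower, with a median of 0.11, and 43 of the 44 were bounded within 2-fold. MANF, a protein released on folding stress, averaged 8.30 ± 0.27 in E+14P and 7.94 ± 0.22 in E+7P, a difference of 0.37 (SE 0.18). SPCS3, a subunit of the signal peptidase, was 0.29 higher (SE 0.12) and OSTC, a subunit of the oligosaccharyltransferase, 0.34 higher (SE 0.16). SSR4, a subunit of the translocon-associated complex, was 0.20 higher. XBP1, the transcription factor that induces this machinery, lay the other way, at 9.85, 8.77, 8.69, 8.68 and 9.23 in E+14P and 9.45, 9.52, 9.46, 9.80 and 9.86 in E+7P.

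None of the genes with the lowest p values passed the test. SAAL1 (probe set 13649636), a serum amyloid A-like gene, had 7.68, 7.44, 7.57, 7.50 and 7.38 in E+14P and 6.85, 7.13, 7.16, 6.92 and 6.90 in E+7P. Every E+14P array lay above every E+7P array, by a mean of 0.52 (SE 0.10, adjusted p = 0.358). PHYH, the peroxisomal enzyme that starts phytanic acid breakdown, averaged 7.21 ± 0.30 in E+14P and 6.50 ± 0.20 in E+7P, also without overlap. IRF2, an interferon regulatory factor, was at 8.01, 8.03, 8.12, 8.03 and 7.93 in E+14P and 7.91, 7.59, 7.75, 7.74 and 7.63 in E+7P. EIF6, a factor of 60S ribosomal subunit formation, was 0.71 higher (SE 0.21), without overlap. HILPDA, a lipid droplet protein, was 0.47 higher with 1 E+7P array inside the E+14P range. The probe set listed for LOC697214, annotated as a pseudogene, was 0.52 higher without overlap and may share signal with a gene of similar sequence.

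GRIA2, a subunit of AMPA-type glutamate receptors, lay nearer E2 at 14 days. Its signals were 6.05, 6.72, 5.04, 5.20 and 5.07 in E+14P and 3.58, 5.24, 3.69, 3.71 and 4.78 in E+7P, and only E+7P replicate 2 reached into the E+14P range. The difference was 1.42 (SE 0.35). Against E2 it stood at -0.82 in E+14P (adjusted p = 0.228) and at -2.23 in E+7P (adjusted p = 0.000718), and the difference between the 2 late groups did not pass the test.

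Among genes at or above the median signal, the lowest p on the lower side was that of LOC100429280 (probe set 13760355), a protein-coding gene with no name in the annotation used. It had 8.46, 8.51, 8.70, 8.20 and 8.57 in E+14P and 9.01, 8.92, 9.08, 9.47 and 9.38 in E+7P, without overlap (-0.68, SE 0.13, adjusted p = 0.358). A second probe set of this gene differed by 0.16 the other way, so the gene's direction is uncertain. THSD7A, a membrane protein with thrombospondin repeats, had 6.79, 7.60, 7.42, 6.88 and 6.78 in E+14P and 7.59, 7.54, 7.95, 7.85 and 7.96 in E+7P. It stood 0.70 above E2 in E+14P (adjusted p = 0.0716) and 1.38 above E2 in E+7P (adjusted p = 0.000656). NDUFV3, a subunit of respiratory complex I, was at 8.20, 8.06, 8.27, 8.13 and 8.22 in E+14P and 8.63, 8.60, 8.59, 8.46 and 8.37 in E+7P. Its groups did not overlap, and against E2 it was called lower in both, by -0.79 in E+14P (adjusted p = 0.000147) and -0.44 in E+7P (adjusted p = 0.0152). TMCC1, CDC42EP4, an effector of the GTPase CDC42, and TMEM220 were lower by 0.33, 0.50 and 0.29 on the log2 scale, each without overlap. BCL2L2, an inhibitor of apoptosis, and RNFT1 were 0.42 and 0.41 lower with overlap.

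Arrays differed more from each other within E+14P than within E+7P. The root mean square log2 distance between 2 arrays had a median of 0.50 within E+14P (10 pairs) and 0.39 within E+7P (10 pairs), and 0.47 between them (25 pairs). Arrays whose squamous, columnar or ciliated marker mean was more than 4 scaled median absolute deviations away from the 25-array median are called arrays that stand apart. In these groups they were E+14P replicates 4 and 5, and in E+3P replicates 2 and 3. E+14P replicate 5 was high in squamous genes (6.62 deviations) and replicate 4 low in ciliated genes (-4.91). Of the 58 genes over 2-fold higher in E+14P, 18 were on the squamous lists and 50 (86.2%) had their highest 2 E+14P signals in these 2 arrays, as did 14.8% of all genes. Without the 2 arrays 54 of the 58 stayed higher, 13 of them over 2-fold, and 2 of the 15 lower genes stayed over 2-fold lower. In all, 34 genes were over 2-fold higher and 12 over 2-fold lower without them.

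**Figure D3:**
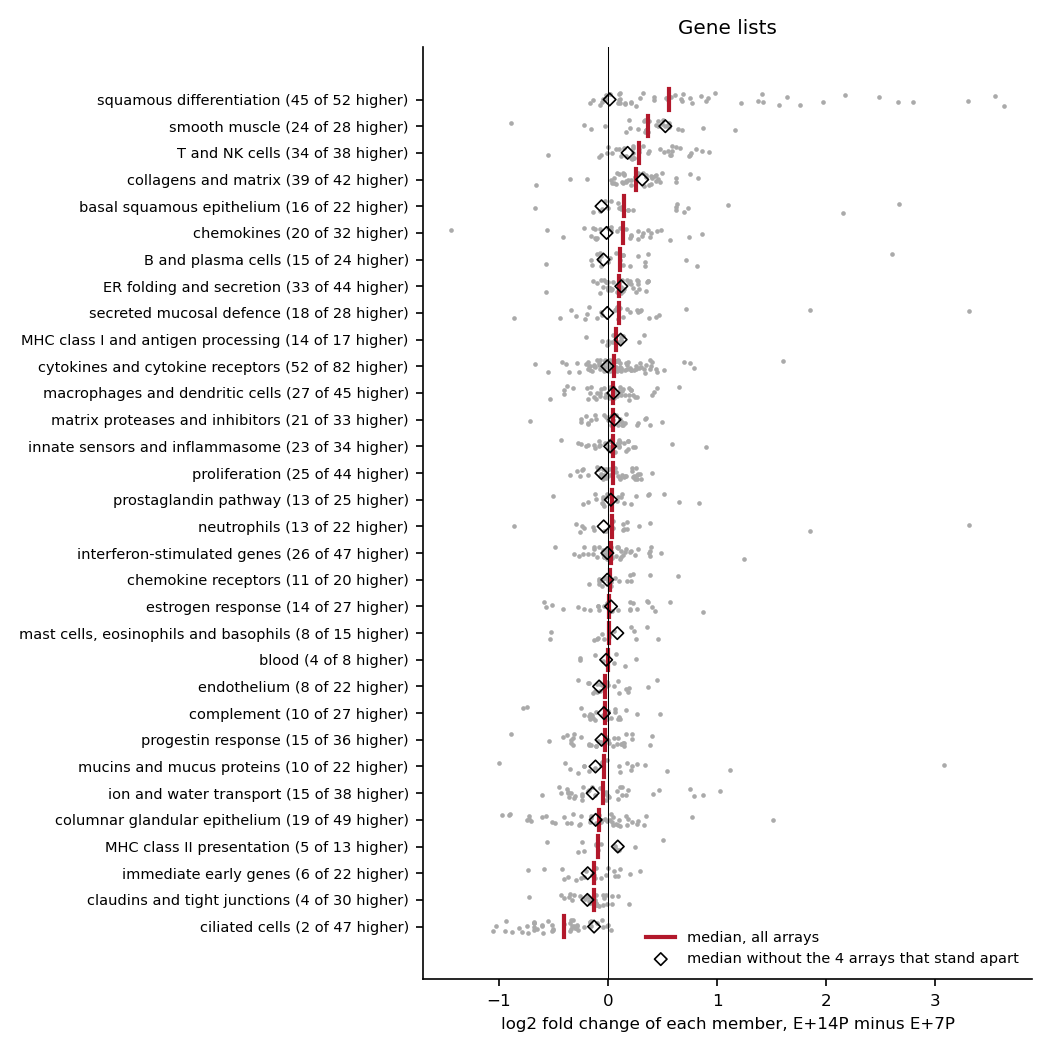
Log2 fold change of E+14P minus E+7P for each measured member (grey points) of 32 gene lists, with the list's median over all arrays (red bar) and without the 4 arrays that stand apart (open diamond). Squamous genes spread furthest to the right with a median of 0.56 that falls to 0.016 without those arrays, T and NK cell genes keep a median above 0, and ciliated cell genes lie almost all to the left.

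T and natural killer (NK) cell genes were the immune family furthest to the higher side. Of 38 measured genes 34 were higher and 4 lower in E+14P, with a median of 0.29, beside 50.3% higher and a median of 0.0012 over all genes. None was called, and 6 (all higher) had an unadjusted p under 0.05, beside 1.86% of all genes that were higher at that p. The mean log2 signal of the list was 5.62, 5.45, 5.71, 6.12 and 5.72 on the E+14P arrays and 5.49, 5.16, 5.67, 5.27 and 5.29 on the E+7P arrays. E+14P replicate 4 was the highest and 2 of the E+7P arrays reached the E+14P range. Against E2 the list's median was 0.66 in E+14P, with 7 of 38 called higher (3.77% of all probe sets were called), and 0.28 in E+7P, with 1 of 38 called (4.19% of all probe sets).

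XCL1, a chemokine released by NK and CD8 T cells, had 6.73, 6.44, 7.20, 7.57 and 6.98 in E+14P and 6.26, 6.15, 6.35, 6.08 and 6.37 in E+7P. All E+14P arrays lay above all E+7P arrays, by a mean of 0.74 (SE 0.29). EOMES, a transcription factor of cytotoxic lymphocytes, had 5.86, 5.65, 5.86, 6.15 and 5.72 in E+14P and 5.79, 5.17, 5.38, 5.09 and 4.89 in E+7P, overlapping through E+7P replicate 1. Both were called above E2 in E+14P (XCL1 by 1.09, adjusted p = 0.0351, and EOMES by 0.98, adjusted p = 0.011) and not in E+7P (0.35, adjusted p = 0.59, and 0.40, adjusted p = 0.363), while the direct difference between the late groups was not called for either. CD226, an activating receptor, was 0.48 higher (SE 0.17) and CD7, a surface marker of T and NK cells, 0.37 higher (SE 0.16). CD226 was dim, at 3.36 in E+14P and 2.88 in E+7P, under the median probe set signal of 5.54. Without the arrays that stand apart the differences were 0.55 (XCL1), 0.53 (EOMES), 0.32 (CD226) and 0.22 (CD7). Leaving out each array in turn kept the list's median between 0.19, without E+14P replicate 4, and 0.36, and without the 4 arrays that stand apart it was 0.18, with 30 of 38 higher. E+14P replicate 4, the array highest in T and NK genes, was also the one low in ciliated genes and the second highest of E+14P in squamous genes, and the part of this makeup in the difference was not tested.

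B and plasma cell genes did not move together. Of 24 measured genes 15 were higher and 9 lower, with a median of 0.11 that was -0.041 without the arrays that stand apart. JCHAIN, the joining chain of secreted IgA and IgM, differed most, with 11.01, 10.01, 8.94, 10.31 and 8.02 in E+14P and 10.18, 7.29, 6.82, 6.23 and 4.74 in E+7P. Only E+7P replicate 1 lay in the E+14P range, and the difference was 2.61 (SE 0.91). The spread within each group was wide, and against E2 neither E+14P (1.68, adjusted p = 0.363) nor E+7P (-0.93, adjusted p = 0.666) was called. CD38, an ectoenzyme of plasma cells and activated lymphocytes, had 5.65, 5.05, 5.56, 5.51 and 5.08 in E+14P and 4.95, 4.72, 4.43, 4.61 and 4.06 in E+7P. MS4A1, the B cell antigen CD20, had 4.60, 5.15, 5.31, 5.37 and 5.05 in E+14P and 4.49, 4.48, 4.13, 4.37 and 4.44 in E+7P. These were the 2 members of the list whose groups did not overlap, by 0.82 (SE 0.22) and 0.71 (SE 0.24), beside 0.406% of all genes, and their differences were 0.86 and 0.64 without the arrays that stand apart. CCR6, the receptor for CCL20 on B cells, T helper cells and dendritic cells, was at 5.48, 5.5, 5.63, 5.94 and 5.87 in E+14P and 4.82, 5.09, 5.33, 5.36 and 4.63 in E+7P, again without overlap (0.64, SE 0.16). Its difference was 0.49 without the arrays that stand apart, which had its 2 highest signals.

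Myeloid cells showed no common direction. Of 45 macrophage and dendritic cell genes 27 were higher and 18 lower, with a median of 0.050, and the per-array mean of the list ran from 5.55 to 5.93 in E+14P and from 5.40 to 5.83 in E+7P. TREM2, a lipid-sensing receptor of macrophages, had 5.90, 6.01, 5.92, 5.74 and 6.16 in E+14P and 6.30, 6.31, 6.59, 6.30 and 6.24 in E+7P, lower in every E+14P array (-0.40, SE 0.14). MSR1, a scavenger receptor, was 0.53 lower on the log2 scale with overlap, MRC1, the mannose receptor, 0.65 higher (SE 0.47) and FLT3, a receptor of dendritic cell development, 0.40 higher (SE 0.20). Without the arrays that stand apart these were -0.25 (MSR1), 1.10 (MRC1) and 0.25 (FLT3). Neutrophil genes split 13 higher and 9 lower of 22 (median 0.034), and genes of mast cells, eosinophils and basophils 8 and 7 of 15 (median 0.0058).

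S100A8 and S100A9, which form the antimicrobial protein calprotectin and are made by neutrophils and by squamous epithelium, were the most variable of the defence genes. S100A8 was at 5.89, 9.57, 5.60, 11.19 and 11.73 in E+14P and 8.76, 3.63, 3.08, 6.46 and 5.51 in E+7P. S100A9 had 7.81, 9.64, 6.42, 11.79 and 12.30 in E+14P and 9.51, 6.96, 5.95, 8.33 and 7.97 in E+7P. For both genes the highest signals were those of E+14P replicates 4 and 5, and without the arrays that stand apart their differences were 1.53 and 0.21, against 3.31 (SE 1.69) and 1.85 (SE 1.29) with them.

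Chemokine receptors, cytokines and interferon-stimulated genes had medians close to that of all genes, and chemokines had a higher one that rested on the arrays that stand apart. Of 32 chemokines 20 were higher (median 0.13, and -0.012 without the arrays that stand apart), and 13 were bounded within 2-fold. CCL5, a T cell attractant, averaged 9.18 ± 0.92 in E+14P and 8.32 ± 0.74 in E+7P, and CCL19, which draws cells through CCR7, averaged 6.01 ± 0.75 in E+14P and 5.56 ± 0.15 in E+7P, a difference of 0.45 that was 0.14 without E+14P replicate 4. Of 20 chemokine receptors 11 were higher (median 0.018), with CCR4 0.38 higher and CCR7 0.23 higher, and without the arrays that stand apart at 0.14 (CCR4) and -0.10 (CCR7). Of 82 cytokines and their receptors 52 were higher (median 0.057). The epithelial cytokine gene IL19 was 0.70 higher (SE 0.27), at 0.43 without E+14P replicate 4 and 0.28 without the arrays that stand apart. IL12RB2, a receptor chain for interleukin 12, was 0.55 lower on the log2 scale, IL10RB 0.30 higher and IL16, an attractant of CD4 cells, 0.33 higher. IL16 was called above E2 in both E+14P (1.03, adjusted p = 0.000969) and E+7P (0.70, adjusted p = 0.016). Of 47 interferon-stimulated genes 26 were higher (median 0.027). SAMD9, an antiviral factor, had 5.61, 5.48, 6.95, 7.16 and 8.0 in E+14P and 6.35, 4.98, 4.91, 5.54 and 5.20 in E+7P, and its difference of 1.24 was 0.62 without the arrays that stand apart. IFIT2 and IRF7 were lower by 0.32 and 0.26 on the log2 scale, so the family did not move as 1 group.

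Antigen presentation, complement and innate sensor lists also had medians near 0. Of 17 MHC class I and antigen processing genes 14 were higher with a median of 0.071, and all 17 were bounded within 2-fold. MAMU-F, a nonclassical class I gene, was 0.28 higher, PSMB8, an immunoproteasome subunit, 0.33 higher and TAPBPL, a peptide editor, 0.20 lower on the log2 scale. Class I genes are near-identical copies of each other in macaques, so a probe set can read more than 1 of them. Of 13 class II presentation genes 5 were higher (median -0.093, and 0.091 without the arrays that stand apart), with IFI30, a lysosomal thiol reductase, at 8.07 ± 0.18 in E+14P and 8.62 ± 0.54 in E+7P. Complement genes had 10 higher of 27 (median -0.028). CLU, the inhibitor clusterin, was 0.74 lower on the log2 scale, with 8.21 in E+14P replicate 4 and between 9.72 and 10.39 in the other E+14P arrays, and leaving out the arrays that stand apart gave -0.36. Of 34 innate sensor and inflammasome genes 23 were higher (median 0.047), with the DNA sensor AIM2 0.59 higher (SE 0.36).

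**Figure D4:**
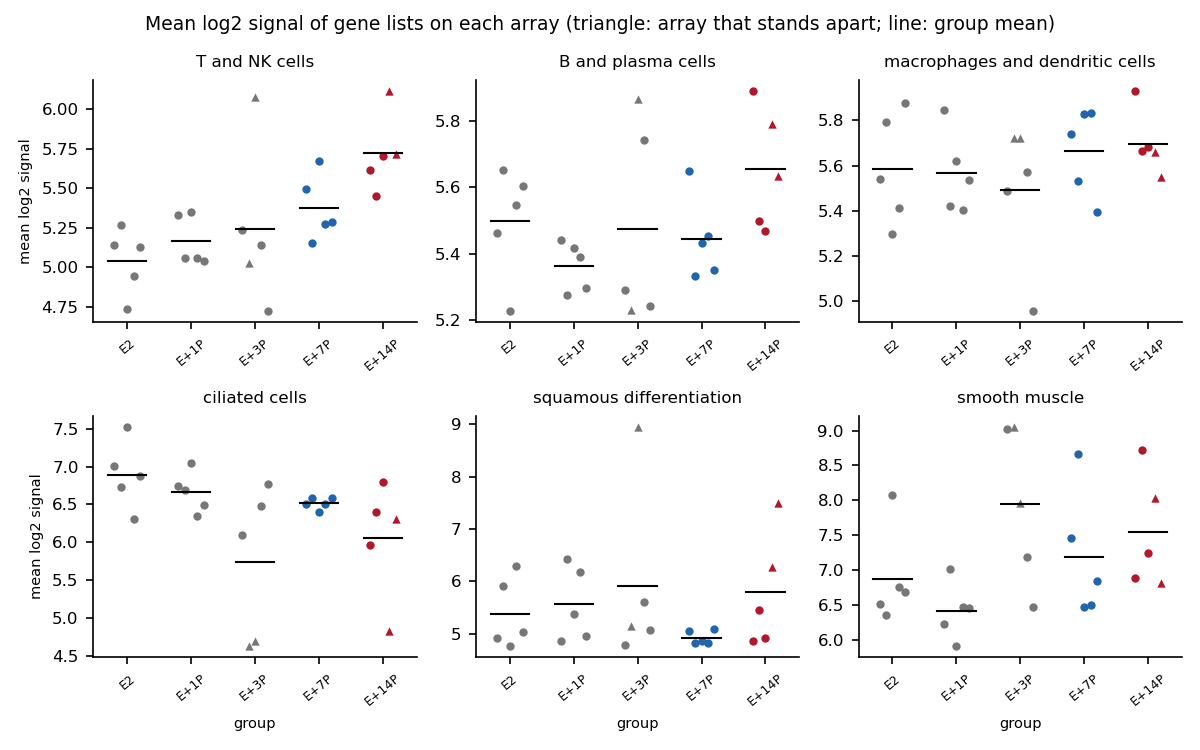
Mean log2 signal of 6 marker lists (y axes) on each of the 25 arrays by group (x axes); lines are group means and triangles are the arrays that stand apart. T and NK cell genes run from 5.45 to 6.12 in E+14P and from 5.16 to 5.67 in E+7P, while the squamous list is spread from 4.87 to 7.50 in E+14P and lies within 4.82 to 5.08 in E+7P.

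Squamous epithelium gave the largest differences and the widest spread. Of 52 squamous differentiation genes 45 were higher and 7 lower in E+14P, with a median of 0.56. The mean of the list was 4.87, 5.45, 4.92, 6.28 and 7.50 on the E+14P arrays and 4.82 to 5.08 on the E+7P arrays. E+14P replicates 1 and 3 lay within the E+7P range, replicate 2 above it, and replicates 4 and 5 far above it. E+7P was the narrowest group for this list. Its mean ran from 4.76 to 6.29 in E2, from 4.87 to 6.42 in E+1P and from 4.79 to 8.95 in E+3P, so a wide spread is not particular to E+14P. Leaving out the arrays that stand apart, a choice that rests in part on this list, 27 were higher and 25 lower and the median was 0.016, and without E+14P replicate 5 alone it was 0.18.

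SPINK5, a protease inhibitor of the stratified epithelium, had 3.71, 7.52, 4.39, 9.68 and 10.70 in E+14P and 3.30, 3.67, 2.86, 3.41 and 4.60 in E+7P. TMPRSS11E, a squamous cell protease, had 2.95, 5.24, 2.94, 8.65 and 7.72 in E+14P and 3.03, 2.90, 2.89, 1.99 and 2.71 in E+7P. Both genes were high in E+14P replicates 2, 4 and 5 and at the E+7P level in replicates 1 and 3, and their differences of 3.63 and 2.80 were 1.64 and 1.01 without the arrays that stand apart. KRT15, a keratin of basal cells, was also high in E+14P replicates 2, 4 and 5, with 6.30, 7.87, 5.25, 10.54 and 10.86 in E+14P and 5.52, 5.58, 5.32, 4.94 and 6.13 in E+7P. DSG3, a desmosomal cadherin, and TRIM29 of basal cells averaged 7.10 ± 2.36 and 7.31 ± 1.31 in E+14P, against 4.94 ± 0.77 and 6.21 ± 0.38 in E+7P. Without the arrays that stand apart the differences were 0.98 (KRT15), 0.52 (DSG3) and 0.20 (TRIM29). NCCRP1 was 1.41 higher (SE 0.63), and 0.55 without those arrays, and KRT3, the keratin of corneal-type epithelium, 0.55 higher (SE 0.21) with a difference of 0.55 also without the arrays that stand apart. LOC703642, a protein-coding gene with no name in the annotation used, had 5.65, 8.13, 5.07, 11.36 and 9.92 in E+14P and 4.02 to 4.89 in E+7P. Of the 73 genes that differed by more than 2-fold in either direction, it was the only 1 whose groups did not overlap, and its signals were highest in the same 3 arrays, with a difference of 3.53 that was 1.79 without the arrays that stand apart.

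Several other epithelial genes were also high in E+14P replicates 4 and 5. OLFM4, a secreted glycoprotein of crypt and gland cells, had 5.76, 8.93, 4.96, 11.35 and 9.63 in E+14P and 4.65 to 5.71 in E+7P, and its difference of 3.08 was 1.51 without the arrays that stand apart. GPX2, an epithelial glutathione peroxidase, was 1.51 higher (SE 0.62), and 0.59 without those arrays, and GCNT3, a mucin-type glycosyltransferase, 0.77 higher, and 0.043 without them. The hydrogen peroxide-producing oxidase DUOX2 and its maturation factor DUOXA2 were 0.72 and 0.47 higher, and 0.13 and 0.14 higher without those arrays. The peroxidase gene LPO, which uses hydrogen peroxide, averaged 4.81 ± 0.34 in E+14P and 5.25 ± 0.72 in E+7P. Over 28 secreted mucosal defence genes 18 were higher, with a median of 0.100 that was -0.005 without those arrays.

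The glandular families had medians near 0, and many of their members were poorly bounded. Of 49 columnar epithelium genes 19 were higher and 30 lower (median -0.077), and of 22 mucins and mucus proteins 10 were higher and 12 lower (median -0.032). Only 25 of the columnar genes and 7 of the mucus genes were bounded within 2-fold, against 92.1% of all genes. MSX1, a homeobox transcription factor, was 0.74 lower on the log2 scale, at 6.05 ± 0.38 in E+14P and 6.79 ± 0.26 in E+7P. CLCA1, a protein secreted with mucus, had 7.42, 5.83, 7.08, 7.23 and 6.65 in E+14P and 7.21, 5.06, 5.81, 4.50 and 6.02 in E+7P. It was called far below E2 in both, by -3.79 in E+14P (adjusted p = 0.00691) and -4.91 in E+7P (adjusted p = 0.000788). In the ion and water transport list 15 of 38 were higher (median -0.047). SLC26A3, a chloride and bicarbonate exchanger, had 4.97, 4.28, 5.74, 3.49 and 3.67 in E+14P and 3.58 to 3.84 in E+7P, high in replicates 1, 2 and 3 and not in the arrays that stand apart, and its difference of 0.75 was 1.32 without them. SLC26A4, its relative pendrin, was 1.03 higher (SE 0.67), and 0.31 higher without those arrays. CA12, a carbonic anhydrase, was 0.87 higher (SE 0.44) and KCNE3, a potassium channel subunit, 0.45 lower on the log2 scale.

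Ciliated cell genes lay almost uniformly lower. Of 47 measured genes 2 were higher and 45 lower in E+14P, with a median of -0.40. Only 1, a lower gene, had an unadjusted p under 0.05, near the 1.85% of all genes that were lower at that p. The mean of the list was 5.96, 6.39, 6.80, 4.83 and 6.31 on the E+14P arrays and 6.40 to 6.59 on the E+7P arrays. E+14P replicate 4 was the lowest, replicate 3 lay above the E+7P range, and without the arrays that stand apart, picked in part by this list, the median was -0.13 with 41 of 47 lower. Leaving out single arrays gave medians from -0.60 to -0.14, the last without E+14P replicate 4. Against E2 the median was -0.87 in E+14P with 4 of 47 called lower (3.77% of all probe sets were called), and -0.39 in E+7P with 2 of 47 called lower (4.19% of all probe sets).

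FOXJ1 and CCNO, regulators of the ciliated program, varied little between the arrays of a group, unlike the mean of the list in E+14P. FOXJ1, the transcription factor of motile cilia, had 6.54, 6.49, 6.60, 6.45 and 6.67 in E+14P and 6.75, 6.92, 6.88, 6.90 and 6.92 in E+7P. CCNO, a cyclin needed for multiple centrioles, had 4.47, 4.51, 4.36, 4.54 and 4.61 in E+14P and 4.76, 4.84, 4.65, 4.83 and 4.86 in E+7P. All of these CCNO signals lay under the median probe set signal of 5.54. In E+14P replicate 4, with the lowest list mean of 4.83, FOXJ1 was at 6.45 and CCNO at 4.54. In E+14P replicate 3, with the highest list mean of 6.80, they were at 6.60 and 4.36, so CCNO was lowest where the list was highest. These were the 2 genes of the list whose groups did not overlap, by -0.32 (SE 0.16) and -0.29 (SE 0.14), beside 0.444% of all genes, and their differences were -0.33 and -0.34 without the arrays that stand apart. FOXJ1 was called below E2 in E+14P (-0.73, adjusted p = 0.0106) and not in E+7P (-0.41, adjusted p = 0.172), while CCNO was called below E2 in both E+14P (-0.83, adjusted p = 0.00104) and E+7P (-0.54, adjusted p = 0.0226). The structural genes TEKT2, a tektin, and RSPH9, a radial spoke protein, were lowest in E+14P replicate 4, TEKT2 at 4.35, against 5.58 to 6.20 in E+7P, and RSPH9 at 5.07, against 6.54 to 6.92 in E+7P. Their differences of -0.51 and -0.68 were -0.25 and -0.21 without the arrays that stand apart. CABCOCO1, a ciliary calcium-binding protein gene, averaged 5.71 ± 0.57 in E+14P and 6.53 ± 0.06 in E+7P, with E+14P replicate 3 alone above the E+7P range and the other 4 below it, and its difference of -0.83 was -0.54 without the arrays that stand apart. ECRG4, which encodes the secreted peptide precursor augurin, had 6.69, 7.09, 7.76, 5.74 and 7.07 in E+14P and 8.25, 8.40, 8.43, 8.95 and 7.56 in E+7P. It was called below E2 in E+14P (-2.74, adjusted p = 0.000593) and not in E+7P (-1.29, adjusted p = 0.0835), and the difference between the late groups, -1.45 (SE 0.42), was not called.

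Claudin and tight junction genes, which seal epithelia, were lower in 26 of 30 cases by small amounts, with a median of -0.13 and of -0.19 without the arrays that stand apart. CLDN6 had 3.65, 3.65, 3.64, 3.90 and 3.53 in E+14P and 3.72, 4.02, 4.07, 3.87 and 4.25 in E+7P. CLDN10 was 0.72 lower on the log2 scale and was called below E2 in both E+14P (-2.87, adjusted p = 0.00117) and E+7P (-2.15, adjusted p = 0.00996). The scaffold cingulin (CGN) and the tricellular junction protein ILDR1 were each 0.35 lower on the log2 scale with overlap. Of these 30 genes 25 were bounded within 2-fold.

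Stromal lists were higher in E+14P and their arrays overlapped widely. Of 28 smooth muscle genes 24 were higher (median 0.37, and 0.53 without the arrays that stand apart), and 3 were bounded within 2-fold. The list's mean was 6.89, 8.73, 7.25, 8.03 and 6.81 on the E+14P arrays and 7.46, 8.67, 6.47, 6.49 and 6.84 on the E+7P arrays. The differences of the list's members ran from -0.89 to 1.17, and 4 members were lower. ACTA2, smooth muscle actin, averaged 10.22 ± 0.53 in E+14P and 9.72 ± 0.78 in E+7P, and CASQ2, a calcium store protein, 4.90 ± 1.19 in E+14P and 3.74 ± 0.13 in E+7P. CASQ2 was high in E+14P replicates 2 and 4 (6.28 and 6.11). It was at 4.18, 3.83 and 4.13 in E+14P replicates 1, 3 and 5, against 3.61 to 3.91 in E+7P. Of 42 collagen and matrix genes 39 were higher (median 0.26), with per-array means of 6.84 to 7.59 in E+14P and 6.49 to 7.44 in E+7P. LOX, the enzyme that crosslinks collagen, was 0.48 higher (SE 0.26). The smooth muscle median was 0.12 without E+14P replicate 2 and 0.73 without E+7P replicate 2, the array richest in these genes of each group, and 0.21 and 0.23 without E+7P replicates 3 and 4. The collagen median was 0.14 without E+7P replicate 5, 0.16 without E+14P replicate 2 and 0.41 without E+7P replicate 2. Matrix proteases and their inhibitors had 21 higher of 33 (median 0.047) and endothelial genes 8 of 22 (median -0.022).

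Immediate early genes, which respond within minutes to stimuli including tissue handling, were lower in 16 of 22 cases (median -0.12). The median was -0.21 without E+7P replicate 3 and -0.085 without E+14P replicate 3. EGR1 had 6.43, 7.11, 7.24, 7.81 and 7.38 in E+14P and 8.16, 8.23, 7.60, 7.82 and 7.83 in E+7P. BTG2, an antiproliferative gene, had 7.40, 7.25, 7.41, 7.25 and 7.15 in E+14P and 7.56, 7.68, 7.63, 7.88 and 7.84 in E+7P, lower in every E+14P array. FOS averaged 5.93 ± 0.58 in E+14P and 6.52 ± 0.67 in E+7P, a difference of -0.59. It had 5.67, 5.41, 5.48, 6.64 and 6.46 in E+14P and 7.38, 7.10, 6.03, 6.02 and 6.05 in E+7P. The higher E+7P mean thus rested on replicates 1 and 2. Over the alternatives the difference ran from -1.0, without the arrays that stand apart, to -0.37. Cell division genes had 25 higher of 44 (median 0.043), all 44 bounded within 2-fold, with MCM6, a replicative helicase subunit, 0.25 higher and without overlap. Of 25 prostaglandin pathway genes 13 were higher (median 0.035). PTGDR, a receptor for prostaglandin D2, averaged 4.79 ± 0.19 in E+14P and 4.13 ± 0.58 in E+7P.

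**Figure D5:**
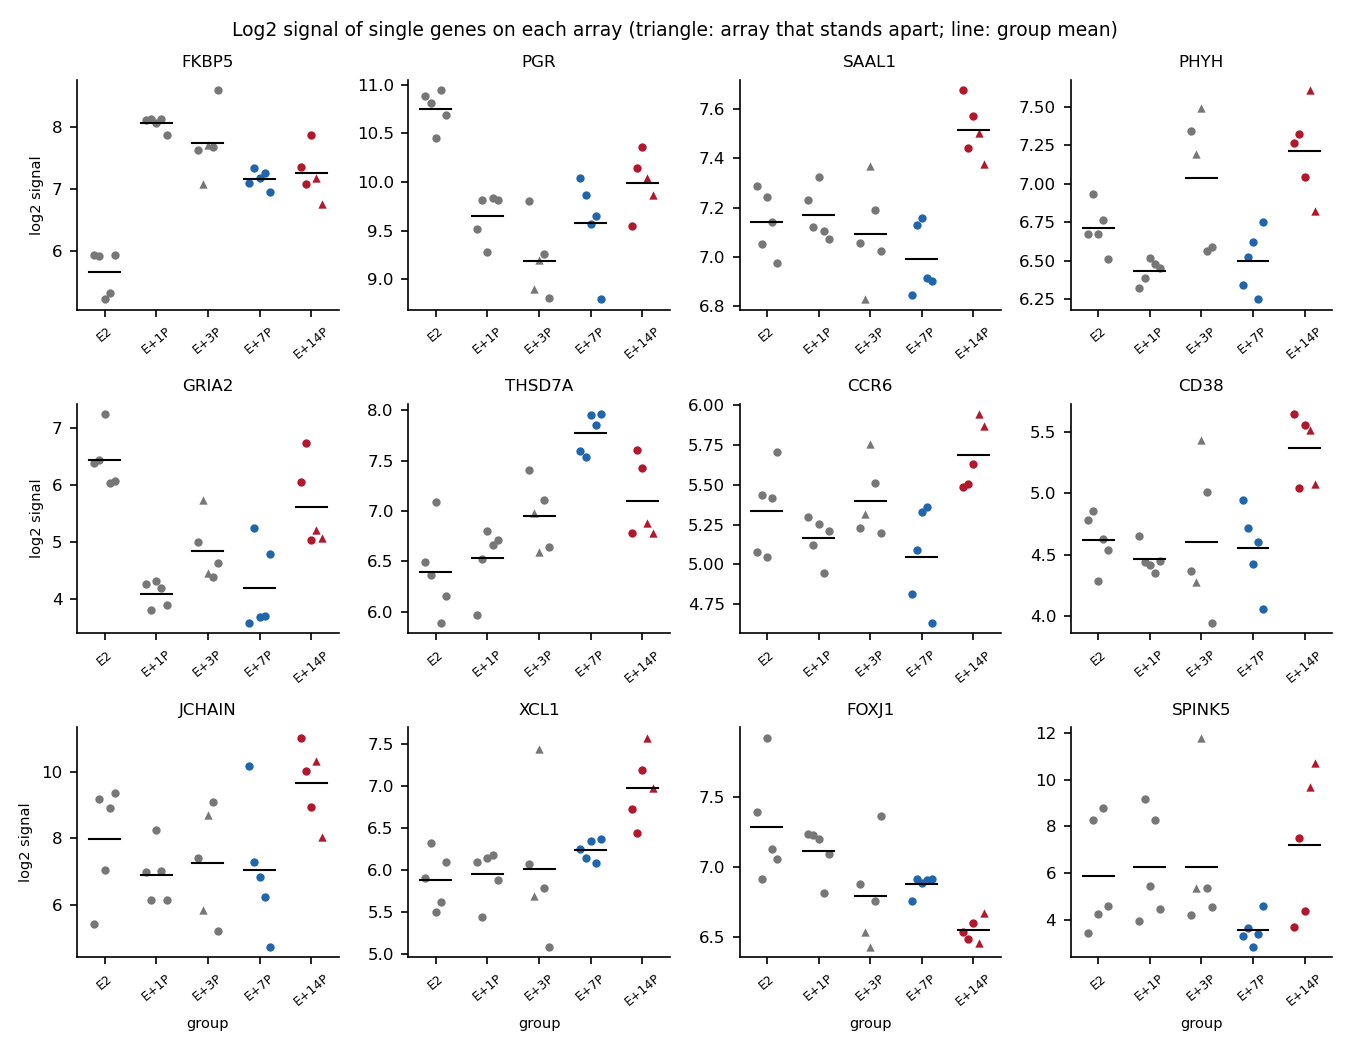
Log2 signal of 12 genes (y axes) on each of the 25 arrays by group (x axes); lines are group means and triangles are the arrays that stand apart. FKBP5 overlaps between E+14P and E+7P. SAAL1, PHYH, CCR6, CD38 and XCL1 are higher and FOXJ1 lower in every E+14P array than in every E+7P array, and SPINK5 is high in 3 of 5 E+14P arrays.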

How the data were processed

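Cervix was frozen before RNA extraction, and the amplified, biotin-labelled product was hybridised, 1 array per animal, per the labels. The table used holds deposited log2 signals of 40489 probe sets on 25 arrays (range 0.618 to 13.69). They came from Affymetrix Expression Console, per the submitters' processing notes, and how it corrected background and normalized is not given in the sources used here. After sorting, no array departed from the mean sorted array by more than 0.29, and the array medians lay between 5.502 and 5.604, so the arrays had been brought to nearly the same distribution. Array number limits the precision, and genome positions and sequences were not used here.

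Of the probe sets 16020 were listed for 1 gene symbol, 490 for several and 23979 for none. The probe set brightest on average stood for each of 15534 genes, 418 of which had more than 1. The test was limma 3.58.1 (R 4.3.3; lmFit and eBayes with a mean trend), with 1 coefficient per group over all 25 arrays (20 residual degrees of freedom), 2-sided, adjusted by Benjamini and Hochberg over 40489 probe sets, threshold 0.05. The p-values measure the spread between animals pooled over the 5 groups, whose median SD per gene ran from 0.19 to 0.27. The code was tested on simulated data.

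The 32 gene lists (1311 entries, 1039 measured) and the members named were chosen with earlier results of these data known, so counts over lists carry no test. Lists share members. Named were the 10 lowest p in each direction among genes at least as bright, in their higher group, as the median probe set, up to 4 members per list by p, and PGR, ESR1 and FKBP5. That gave 146 genes, and 98 are given or were examined across alternatives. The alternatives were quantile normalization, median centring, a filter on dim probe sets (under the 40th percentile), no variance trend, array weights, the 10 arrays alone, leaving out each array, dropping the 4 arrays that stand apart, covariates for 3 makeup means (squamous, columnar and smooth muscle), 1-symbol probe sets only and a minimum change of 1.5-fold. Leaving out the 4 arrays and the smooth muscle-richest array of each late group was chosen after seeing the data.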

Additional observations from a re-analysis of the deposited data

Results flagged for a closer look

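In 260 groups of 5 arrays (named genes and lists in E+14P and E+7P), 9 had 1 array whose gap to the nearest other exceeded 0.71 of the group's range, where chance gives about 1 in 20. DUOXA2 was at 6.04 in E+14P replicate 4, against 4.66 to 5.02 in the other E+14P arrays. EIF6 was at 5.77 in E+7P replicate 5, below the others at 6.47 to 6.71, and in the same array OSTC was at 6.77 (others 7.29 to 7.40) and LOX at 5.89 (others 6.84 to 7.16). In that array the mean of the basal squamous list was 7.03, above the others at 6.38 to 6.53. HILPDA was at 6.32 in E+7P replicate 2 (others 5.92 to 5.96), TREM2 at 6.59 in E+7P replicate 3 (others 6.24 to 6.31) and CCND1 at 7.00 in E+7P replicate 4 (others 6.55 to 6.64). FOXJ1 was at 6.76 in E+7P replicate 1, below the others at 6.88 to 6.92 and still above every E+14P array.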

How the results depend on the processing

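Under 20 alternatives 0 probe sets were called between E+14P and E+7P. The lowest adjusted p when single arrays were left out ranged from 0.124 to 1, and the number with an unadjusted p under 0.05 ranged from 1475 to 2337. That number was 2721 without the 4 arrays that stand apart, against 1729 with all arrays, and 32 with a minimum change of 1.5-fold. The share of genes bounded within 2-fold ran from 88% to 95.7% over the alternatives that give an interval. Without the 4 arrays that stand apart and the smooth muscle-rich replicate 2 of each late group, 1 probe set was called (CTAGE1, 1.92 higher, adjusted p = 0.000256, against 0.72, adjusted p = 0.987, with all arrays), the squamous median was -0.067, and differences turned for S100A8 (-0.21), S100A9 (-0.82), CCR7 (-0.13), DUOX2 (-0.26), DSG3 (-0.10), TRIM29 (-0.027), GCNT3 (-0.11) and KCNE3 (0.11). FKBP5 lay between -0.072 (without E+14P replicate 3) and 0.21 when single arrays were left out, and its highest value over all alternatives was 0.49. CCR7 was -0.10 without the 4 arrays that stand apart. With 3 makeup covariates the squamous median was -0.15, by construction since its own mean is a covariate, and the median of cell division genes was -0.10. Without dim probe sets fewer genes were measured, and the median of ion and water transport genes was -0.20 and that of blood genes -0.19. Other causes were not tested. Over all alternatives 2027 recomputed gene differences kept their direction and 10 turned. Centring on array medians shifted the median of all genes to 0.015. No paired analysis was possible because the labels give no replicate number or animal shared between the groups. The number of animals and the unknown signal over background limit what differences could be called.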
